A study of Homo sapiens with 9 samples.

Results

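The 83 protein-coding genes of the cytosolic ribosome were examined in Ago-HITS-CLIP data from MDA-MB-231HM (231HM) cells, a highly metastatic variant of the human triple-negative breast cancer line MDA-MB-231. Genes were taken by symbol, as RPSA, FAU, RPLP0, RPLP1, RPLP2, or RPL or RPS with a number, without pseudogenes and without the RPS6K kinases. They made up 83 of 20176 annotated protein-coding genes, with 50 encoding proteins of the large subunit and 33 of the small subunit. Wild-type 231HM cells were transfected for 48 h with 20 nM of a miR-342-3p mimic, a miR-342-5p mimic or a negative control mimic, 3 replicates each. In this assay Ago, the protein that carries a miRNA, is crosslinked to the RNA it holds, immunoprecipitated, and the attached RNA is sequenced. The authors called peaks on each miR-342 mimic over the shared control and deposited 1 merged list per mimic, named 3p and 5p here after the strand of the mimic. Of 3450 3p peaks and 5010 5p peaks, 19 and 27 had their midpoint in a ribosomal protein gene on its strand. The lists give a score per peak, described as reads above background, and no value per library, which leaves sequencing depth unknown and the spread between replicates without an estimate.

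Ribosomal proteins assemble with ribosomal RNA into the large subunit, which forms peptide bonds, and the small subunit, which decodes the mRNA. Their mRNAs are short, are among the most abundant of a proliferating cell, and begin with a terminal oligopyrimidine (TOP) tract, through which mTOR signalling sets their translation. A miRNA guides Ago to an mRNA mainly by pairing of its seed, the bases 2 to 8 counted from its 5′ end, most effectively in the 3′UTR. Expression was not analysed here, so the part of mRNA abundance in the number and score of the peaks was not tested.

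The mature mimic sequences are shown because the search for target sites rests on their seeds, printed in capitals (RefSeq, GRCh38.p14).
miR-342-3p: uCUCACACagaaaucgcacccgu
miR-342-5p: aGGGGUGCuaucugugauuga
For miR-342-3p the 8mer site was GUGUGAGA and the 7mer sites GUGUGAG and UGUGAGA. For miR-342-5p they were GCACCCCA, GCACCCC and CACCCCA. The last 7mer of each set ends in the A opposite the first miRNA base, and a 6mer is the stretch that the 7mers of a set share.

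Coding peaks that the results turn on are printed whole, with any seed match to the mimic of that list in capitals (hg19, read 5′ to 3′ on the strand of the gene). The RPL21 peak of the 3p list at chr13:27830573-27830625 (plus strand) and the RPL27A peak at chr11:8705547-8705628 (plus strand) and RPL26 peak at chr17:8283114-8283166 (minus strand) of the 5p list were those with a 7mer. The RPS24 peaks at chr10:79795153-79795175 and chr10:79795269-79795317 (plus strand) face each other over a splice junction and have a 6mer in the second. The first 6 bases of the RPL27A stretch precede the annotated exon.
RPL21, score 91: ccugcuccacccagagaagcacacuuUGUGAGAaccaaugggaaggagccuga
RPL27A, score 305: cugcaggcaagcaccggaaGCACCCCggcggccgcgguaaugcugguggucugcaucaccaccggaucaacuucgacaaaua
RPL26, score 180: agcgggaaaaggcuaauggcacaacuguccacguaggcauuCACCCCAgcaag
RPS24, score 157: gacuacuucagaggaaacaaaug
RPS24, score 298: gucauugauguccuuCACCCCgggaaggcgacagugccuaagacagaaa
The next peaks are shown because they scored high in their list without any such match. They lay at chr3:197678153-197678182 (RPL35A, plus strand), chr11:118888123-118888194 (RPS25, minus strand), chr6:33243606-33243660 (RPS18, plus strand) and chr22:39714405-39714469 (RPL3, minus strand), RPL35A and RPS25 in the 5p list and RPS18 and RPL3 in the 3p list.
RPL35A, score 453: gagaugcgcuuauguauauaaagcaaagaa
RPS25, score 345: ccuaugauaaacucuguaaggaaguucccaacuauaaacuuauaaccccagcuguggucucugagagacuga
RPS18, score 129: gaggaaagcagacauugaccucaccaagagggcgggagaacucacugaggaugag
RPL3, score 114: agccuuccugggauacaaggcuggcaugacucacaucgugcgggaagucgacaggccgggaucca

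Ago peaks over control were found in 12 ribosomal protein genes with the miR-342-3p mimic and in 18 with the miR-342-5p mimic. These were 14.5% and 21.7% of the 83 genes, beside a background of 11.6% and 11.7% among all protein-coding genes. The mRNAs were short, with a median of 778 nt against 2866 nt over all protein-coding genes. Per kilobase of mRNA the ribosomal protein genes held 0.17 3p peaks and 0.242 5p peaks, and all protein-coding genes, expressed in these cells or not, 0.0452 and 0.0659. The density was 0.237 and 0.356 in 16 other TOP mRNAs and 0.372 and 0.967 in 25 housekeeping mRNAs. It was 0.178 and 0.109 in nuclear respiratory chain genes, and 0.0839 in both lists for mitochondrial ribosomal protein genes. No test was made of these counts, and both lists share the control libraries.

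By subunit, 9 of 50 large-subunit genes and 3 of 33 small-subunit genes had a 3p peak, and 12 and 6 had a 5p peak. The P stalk genes RPLP0, RPLP1 and RPLP2, whose proteins recruit the elongation factors, had no peak in either list. Of the 2 genes whose proteins bind 5S rRNA and can restrain MDM2, RPL5 had a 3p peak scoring 37 and RPL11 had none. RPS27A, which encodes a ribosomal protein fused to ubiquitin, had a 5p peak scoring 143, and FAU, encoding a fusion to a ubiquitin-like protein, had none. The paralogs RPL3L, RPL10L, RPL39L, RPL36AL and RPS27L had no peak. Of 15 genes mutated in Diamond-Blackfan anaemia, an inherited red cell aplasia, RPL5 had a 3p peak (6.67%, against 14.5% of all 83 genes). RPL26, RPL27, RPL35A and RPS24 had 5p peaks (26.7%, against 21.7%). Of these 6 5p peaks, 5 scored above 100, as did 14 of the 27 in all ribosomal protein genes.

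Both mimics gave a peak in RPL6, RPL27A, RPL29 and RPS18. The share of all protein-coding genes with a peak in both lists was not counted. RPL6 held 5 3p peaks scoring 50, 45, 30, 14 and 10 and 2 5p peaks scoring 124 and 70, all in exons 2 and 4. Its peaks of the lists overlapped, and none had a site of either mimic. The 3p peak at chr12:112844564-112844641 lay within the 5p peak at chr12:112844560-112844654. RPS18, a protein of the head of the small subunit, had a 3p peak scoring 129 in exon 3 and a 5p peak scoring 96 in exon 5. RPL27A had a 3p peak scoring 9 in its last exon and 4 5p peaks scoring 305, 170, 37 and 27 in its first 3 exons. RPL29 had a 3p peak scoring 21 and 3 5p peaks scoring 55, 29 and 18. How the libraries of the lists were scaled to each other is not given in the sources used here, so scores were read within a list.

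The remaining 57 genes had a peak in neither list, among them FAU, RPL10, RPL10A, RPL10L, RPL11, RPL12, RPL13, RPL13A, RPL14, RPL15, RPL17, RPL18, RPL19, RPL24, RPL28, RPL30, RPL31, RPL35, RPL36, RPL36A, RPL36AL, RPL37, RPL37A, RPL39, RPL39L, RPL3L, RPL4, RPL41, RPL7, RPL9, RPLP0, RPLP1, RPLP2, RPS10, RPS12, RPS13, RPS15, RPS15A, RPS16, RPS19, RPS2, RPS20, RPS21, RPS26, RPS27, RPS27L, RPS28, RPS29, RPS3, RPS3A, RPS6, RPS7 and RPS9. A gene without a peak had no signal over the control that passed the authors' peak calling, which does not show that Ago was absent from its mRNA.

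Peaks of ribosomal protein genes stood high in the 5p list and less so in the 3p list. The median score of the 27 5p peaks was 117 (quartiles 41 and 175, range 16 to 453), beside 19 over all 5010 peaks (quartiles 11 and 37). The median of the 19 3p peaks was 38 (quartiles 21.5 and 87, range 9 to 150), beside 24 over all 3450 peaks (quartiles 13 and 49). Scores above 100 were reached by 14 of 27 5p peaks (51.9%, against 7.21% of the list) and by 3 of 19 3p peaks (15.8%, against 10.8%). In the 5p list 25 of the 27 peaks lay above the list median, and in the 3p list 13 of 19. These are descriptions with no test, since a score has no replicate error.

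Among the 5p peaks, RPL35A had the highest score, 453, with 99.4% of the list at or below it. RPL35A is a large-subunit protein, and its peak was 30 nt wide and ended at the last base of exon 3. RPS25, a small-subunit protein used by some viral internal ribosome entry sites, followed with 345 (99.1% at or below). RPL27A scored 305 and RPS24 298 (98.9% at or below each). RPL23, whose protein can bind MDM2, scored 229, and RPS14, a small-subunit gene lost in the 5q- syndrome, scored 210. RPL26, whose protein binds the p53 mRNA, scored 180. RPL27 and RPL23A, the latter at the exit of the peptide tunnel, both scored 147, and RPS27A scored 143. The other genes of the list had lower highest scores, such as 124 (RPL6), 117 (RPL32), 96 (RPS18), 55 (RPL29), 51 (RPL38), 45 (RPL22) and 28 (RPSA).

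Among the 3p peaks, RPL8, a protein next to the peptidyl transferase centre, had the highest score, 150, with 93.3% of the list at or below it. RPL8 also had a second peak scoring 83. RPS18 followed with 129 (92% at or below) and RPL3, another protein near the peptidyl transferase centre, with 114 (90.6% at or below). RPL34 scored 94, and RPL21 had 3 peaks scoring 91, 55 and 22. No other gene went above 50, the highest score in RPL6. RPS23, at the decoding centre, scored 38 and RPL5 37. RPS4X, the X-linked form of a small-subunit protein, scored 35, and RPL29, RPL7A and RPL27A had highest scores of 21, 20 and 9.

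**Figure D1:**
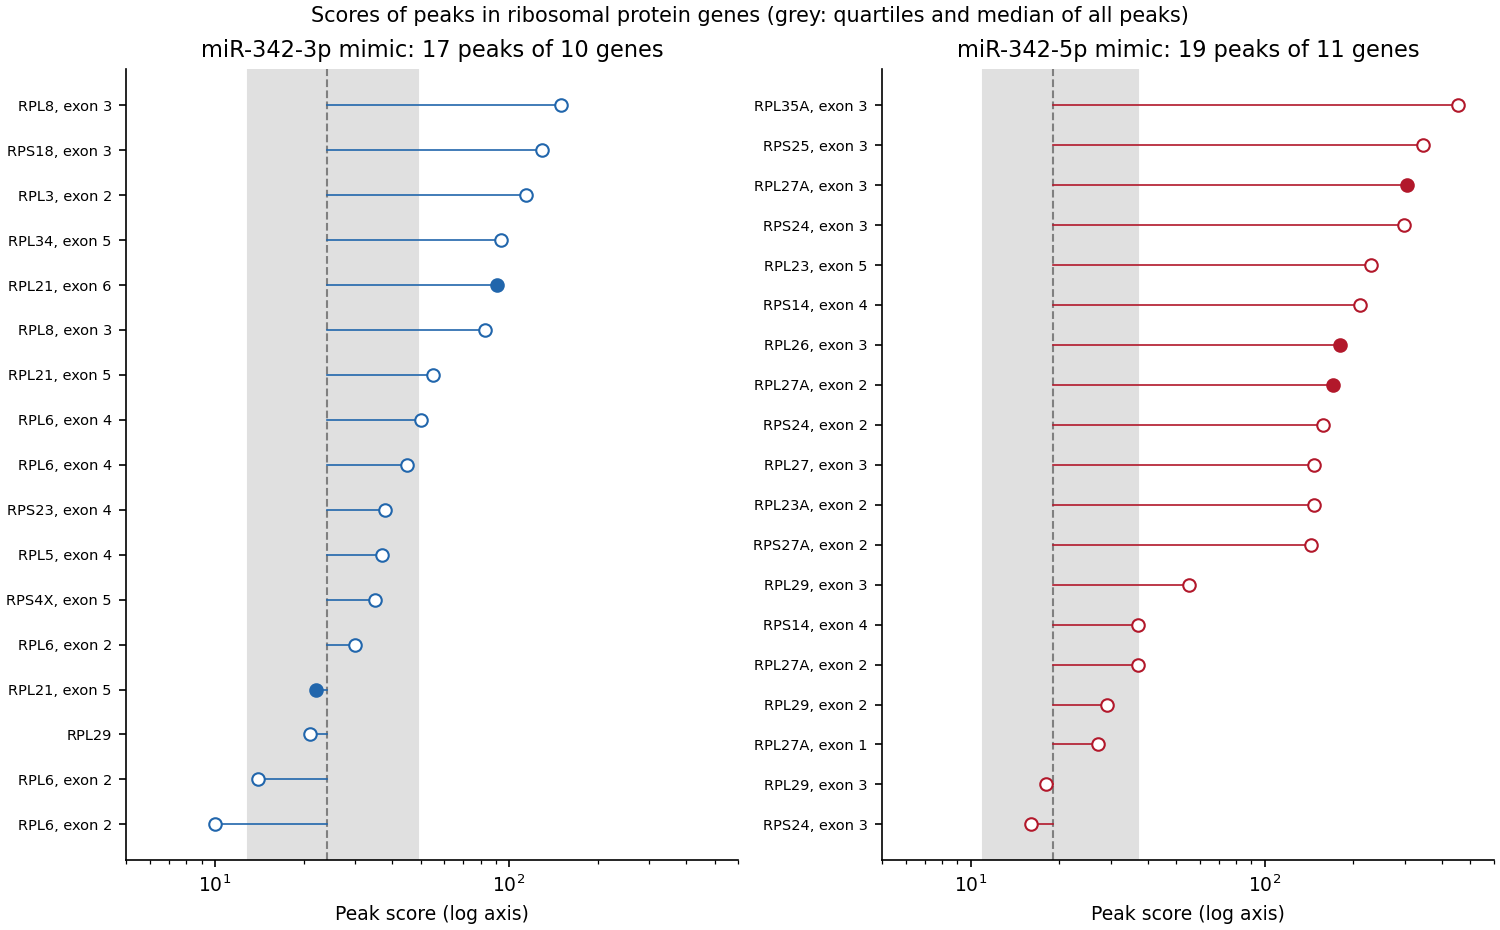
Score of each peak, on a log axis, in the 10 ribosomal protein genes with the highest scores of the list and in those with 3 or more peaks, by gene and exon of its canonical transcript, for the 3p list (left, 17 peaks of 10 genes) and the 5p list (right, 19 peaks of 11 genes). The grey band spans the quartiles of all peaks of the list, the dashed line is their median (24 and 19), and filled circles have a 7mer site within 50 nt of the summit in the spliced mRNA; 13 and 17 of the peaks lie right of the dashed line.

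Peak scores of other abundant mRNAs were also high, and those of mitochondrial ribosomal protein mRNAs were low. Of 16 other TOP mRNAs, which encode elongation factors, PABPC1 and similar proteins, 7 had a 3p peak and 9 a 5p peak, with median scores of 85.5 and 94. Of 25 abundant housekeeping mRNAs such as ACTB and GAPDH, 6 and 15 had a peak, with median scores of 86 and 128. Of 78 mitochondrial ribosomal protein genes, whose products form the ribosome of the organelle, 5 and 9 had a peak, with median scores of 19 and 13.5. Of 94 nuclear genes for respiratory chain subunits, 18 and 13 had a peak, with median scores of 32 and 30. The score of the 5p peaks in cytosolic ribosomal protein genes (median 117) lay between those of the other TOP mRNAs and the housekeeping mRNAs. In the 3p list it was below both (median 38). Of the ribosomal protein genes, 14.5% had a 3p peak and 21.7% a 5p peak. These shares were below those of the other TOP mRNAs (43.8% and 56.2%) and the housekeeping mRNAs (24% and 60%). They were above those of the mitochondrial ribosomal protein genes (6.41% and 11.5%). Respiratory chain genes had 19.1% and 13.8%. The differences between these gene groups were not tested.

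**Figure D2:**
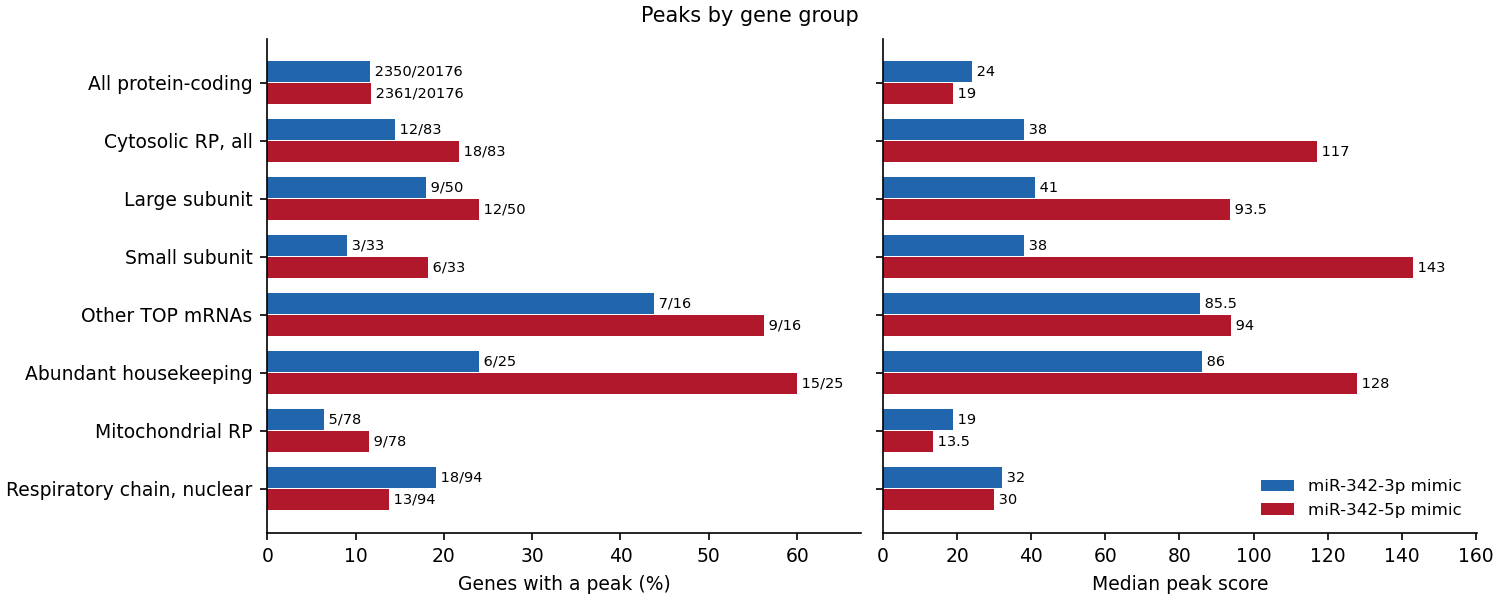
Percent of genes with a peak (left, with the number of genes) and median score of their peaks (right), for all protein-coding genes, the cytosolic ribosomal protein (RP) genes, each subunit, and 4 other gene groups, in the 3p list (blue) and the 5p list (red). For 5p the bars of the ribosomal protein genes reach 21.7% of genes and a median score of 117, against 11.7% and 19 for all protein-coding genes. Those of the other TOP mRNAs reach 56.2% and 94, and those of the housekeeping mRNAs 60% and 128.

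Nearly all peaks in ribosomal protein genes lay in coding exons. Coding exons held 17 of 19 3p peaks (89.5%, 95% Wilson CI 68.6 to 97.1%), against 1882 of 3431 other peaks of the list (54.9%, CI 53.2 to 56.5%), which was 34.6 percentage points higher (two-sided Fisher's exact test, p = 0.00201, adjusted p = 0.00983 over 6 tests). They held 25 of 27 5p peaks (92.6%, CI 76.6 to 97.9%), against 3460 of 4983 (69.4%, CI 68.1 to 70.7%), a difference of 23.2 points (exact p = 0.0061, adjusted p = 0.0122). For 3′UTRs the numbers were 2 of 19 3p peaks (10.5%, CI 2.94 to 31.4%) against 34.4% of the others (adjusted exact p = 0.0434), and 1 of 27 5p peaks (3.7%, CI 0.657 to 18.3%) against 17.9% (adjusted exact p = 0.0872). These p-values cover counting error between peaks and not the spread between cultures, and peaks of a gene are not independent. The tests also took no account of how much of each mRNA is coding. Coding sequence held 835 of the 892 30-nt stretches of the RPL6 mRNA and 451 of 537 in RPL21. It held 415 of 4506 in RPL27A, so the coding share varied between genes. Whether it accounts for the location of the peaks was not tested. With the highest peak of each gene only, the difference in coding exons was 28.3 points for the 3p list, which no longer passed (exact p = 0.0771), and 25.9 points for the 5p list (exact p = 0.0189). The 3p difference in 3′UTRs did not pass there either (-21 points, exact p = 0.23), nor did the 3p differences above a score of 100, where 3 peaks remain.

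The few peaks outside coding exons had their own annotation. The RPS23 peak of 3p and the RPL23 peak of 5p were placed in a 3′UTR of another transcript, while their summits lay at 78.6% and 90.7% of the coding sequence of the canonical transcript. The RPL29 peak of 3p lay in a 3′UTR, outside the exons of the canonical transcript. The first RPL27A peak of 5p, scoring 27, had its midpoint in the 5′UTR, and its summit at the start of the coding sequence. Where the summit could be placed on the canonical transcript, it ranged from 2.78 to 87.9% of the coding sequence for the 3p list and from 0.45 to 91.9% for the 5p list, so the peaks did not share a position.

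**Figure D3:**
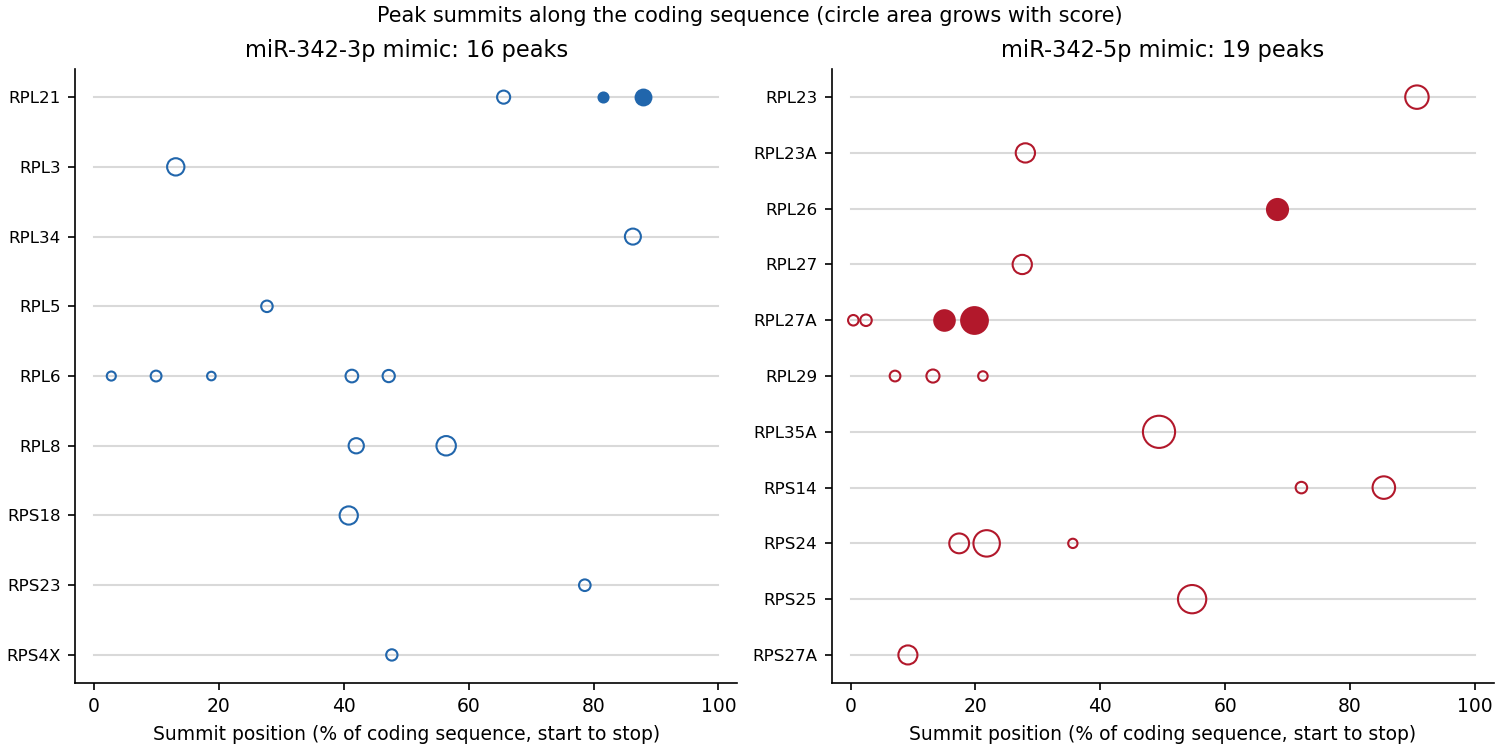
Position of each summit along the coding sequence of the canonical transcript, from start (0%) to stop (100%), for 16 3p peaks (left) and 19 5p peaks (right) of the genes with the highest scores or with 3 or more peaks. Each circle is a peak, its area grows with the score, and filled circles have a 7mer site within 50 nt in the spliced mRNA. RPL6 and RPL21 in the 3p list, and RPL27A, RPL29 and RPS24 in the 5p list, hold 3 or more peaks. Those peaks lie in exons 2 and 4 of RPL6, 5 and 6 of RPL21, 1 to 3 of RPL27A, and 2 and 3 of RPL29 and RPS24.

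Several peaks of the same gene faced each other over a splice junction. The RPS24 peaks scoring 157 and 298 ended and began at the facing ends of exons 2 and 3, with summits 17 nt apart in the mRNA and 110 nt apart in the genome. The RPL27A peaks scoring 170 and 305 met in the same way between exons 2 and 3, with summits 22 nt apart in the mRNA and 762 nt apart in the genome, and the peaks scoring 27 and 37 between exons 1 and 2, with summits 9 nt apart in the mRNA. The RPL29 peaks scoring 29 and 55 met between exons 2 and 3, with summits 29 nt apart. In the 3p list the RPL21 peaks scoring 22 and 91 met between exons 5 and 6, with summits 31 nt apart. An edge lay within 2 nt of an exon end in 19 of 27 5p peaks (70.4%) and 11 of 19 3p peaks (57.9%), against 37.7% and 50.1% of the other peaks in coding exons.

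Seed sites lay under few of these peaks. Within 50 nt of the summit, a 7mer or 8mer lay in 1 of 19 3p windows (5.26%, CI 0.935 to 24.6%), against 711 of 3431 other windows (20.7%, CI 19.4 to 22.1%). The difference of -15.5 points did not pass (two-sided Fisher's exact test, p = 0.15, adjusted p = 0.15). For the 5p list it was 2 of 27 (7.41%, CI 2.06 to 23.4%) against 1653 of 4983 (33.2%, CI 31.9 to 34.5%), a difference of -25.8 points (exact p = 0.00328, adjusted p = 0.00983). No window held an 8mer. The groups of other abundant mRNAs had a site in 1 of 12 (other TOP mRNAs, 8.33%) and 1 of 15 peaks (housekeeping mRNAs, 6.67%) in the 3p list, and in 4 of 18 (22.2%) and 10 of 39 (25.6%) in the 5p list, which was not tested. The other peaks included more in 3′UTRs, so the comparison was repeated in coding exons alone, a setting chosen after seeing the data. The shares were then 1 of 17 (5.88%) against 16.4% for the 3p list (exact p = 0.337), and 2 of 25 (8%) against 27.6% for the 5p list (exact p = 0.0251).

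**Figure D4:**
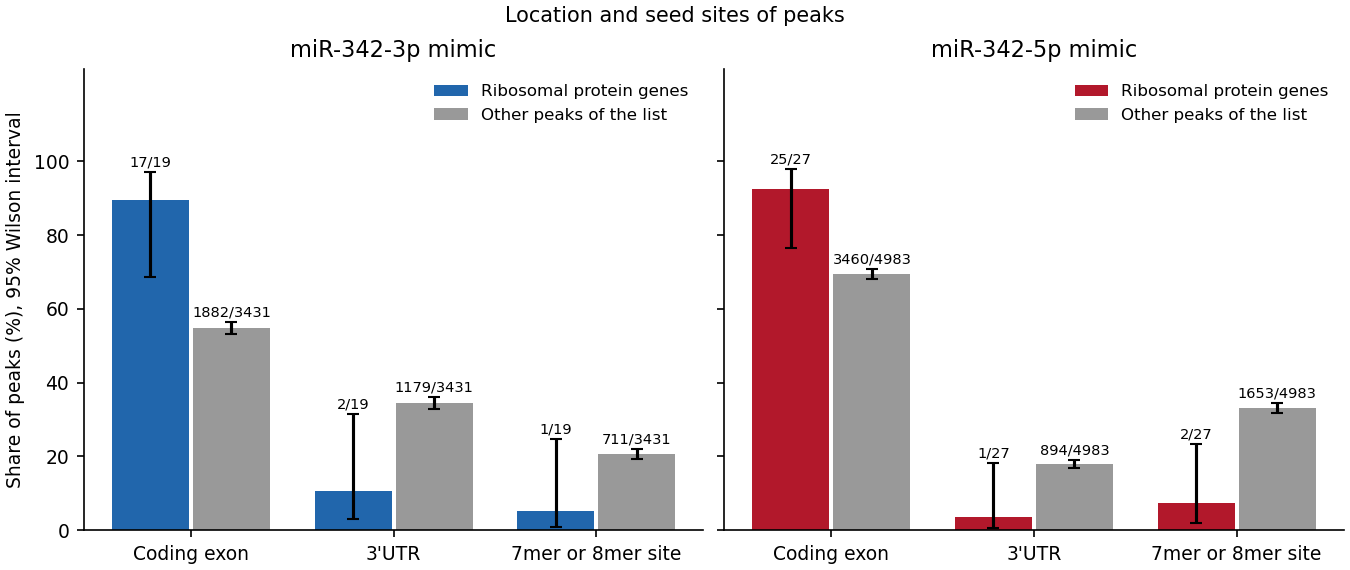
Share of peaks in coding exons, in 3′UTRs and with a 7mer or 8mer site within 50 nt of the summit, for peaks in ribosomal protein genes (coloured) and all other peaks of the list (grey), with 95% Wilson intervals and the numbers of peaks, for the 3p list (left) and 5p (right). The coding-exon bars are 34.6 and 23.2 points above the grey bars, and the site bars 15.5 and 25.8 points below them.

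All 3 peaks with a site scored above the median of the peaks in ribosomal protein genes of their list. The RPL21 peak scoring 91 had its summit on the 7mer UGUGAGA at chr13:27830599-27830605 in exon 6. The RPL27A peak scoring 305 had the 7mer GCACCCC at chr11:8705566-8705572 in exon 3, 5 nt from its summit. The RPL26 peak scoring 180 had the 7mer CACCCCA at chr17:8283119-8283125 in exon 3, 3 nt from its summit. In windows read from the spliced mRNA, the facing peaks of RPL21 (22) and RPL27A (170) reached the same sites, which gave 2 of 19 and 3 of 27 peaks. The 6mer was then within 50 nt of both strong RPS24 summits, and RPS14, scoring 210, also had a 6mer. On the opposite strand of the windows there were 0 sites of 19 (CI up to 16.8%) and 0 of 27 (CI up to 12.5%), and 1 and 2 unmatched windows cannot reach p below 0.05 (exact McNemar test, p = 1 and p = 0.5).

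The longest stretch complementary to the mimic in any of these windows was 8 nt, in the RPL27A peak scoring 305. It was the only 1 of the 27 5p windows with 8 nt or more, against 11.5% of all windows of the list, and the 3p windows had 0 of 19, against 22.2%. Among the other peaks in coding exons, the nearer comparison, the shares were 9.08% for 5p and 16.3% for 3p. Runs of 8 nt or more of strictly alternating G and U, present in 19% of all 3p windows, were in 0 of the 19 windows of ribosomal protein genes. They were in only 102 of 1882 windows (5.42%) of other 3p peaks in coding exons, and 19 windows are too few to tell 0 from that share. The median GC content of the windows was 47.5% and 54.5%, beside 49.5% and 59.4% over the lists.

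In the 3p list, the share of seed sites under a peak was near that of all other protein-coding genes, expressed in these cells or not. The 5p numbers were too small to compare. The canonical mRNAs held 20 3p sites (7mer and 8mer) in 14 genes, of which 1 had a summit within 50 nt (5%, CI 0.888 to 23.6%), against 6.3% in all other protein-coding genes. Their 3′UTRs held 17 of these sites, 0 of them under a peak (CI up to 18.4%). The share in 3′UTRs of all other genes was 4.82%, and no difference from it was detectable with 17 sites. Among only those other genes that had a peak, the 3p shares were 31.8% of all sites and 24.7% of 3′UTR sites. For 5p the share of all sites was 48.9%. The ribosomal protein sites include genes without a peak, so these shares are not a like comparison either. The sites nearest to the coding sequence, within 200 nt of it, were in RPL27A, RPLP1 and RPS19. The only 8mer was in RPL37, 6221 nt beyond the coding sequence in a long annotated 3′UTR. In the 5p search there were 8 sites in 8 genes, of which 2 were under a peak (25%, CI 7.15 to 59.1%), against 11.6% in all other protein-coding genes. These were 2 of 4 sites in coding exons, where other genes had 16.3%, and 0 of 4 in 3′UTRs, where other genes had 6.48%. The annotated 3′UTRs of RPL37 and RPS27L hold 7 of the 17 sites and are long, and whether 231HM cells use them was not tested.

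Ribosomal protein genes are known for their many processed pseudogenes, and the sequence under their peaks was often repeated in the genome. A 30-mer with another exact copy in the assembly was present in 17 of 19 3p peaks (89.5%) and 20 of 27 5p peaks (74.1%), against 7.97% and 8.09% of the other peaks in coding exons. Every 30-mer was copied in 10 and 12 of them, among these RPL34 (94), RPL21 (91), RPL26 (180), RPL23A (147) and RPS27A (143). In contrast, no 30-mer was copied in the RPS24 peak scoring 298, the RPL27A peak scoring 170 or the 30-nt RPL35A peak scoring 453. Peaks under 30 nt were widened to 1 30-mer in the genomic sequence. At an exon end, as for RPS14 (210) and RPS24 (157), that 30-mer can include intron bases, so their 0% is not a like measure. No peak of either list lay in any of 1604 annotated ribosomal protein pseudogenes. Genes with a peak of either mimic had a median of 80% of coding 30-mers copied, and genes without a peak 73%. The authors filtered alignments by quality with Samtools before calling peaks, but the limit of that filter and its treatment of reads with several hits are not given in the sources used here, and its part in which genes have a peak was not tested. Not counted among the 27 peaks were 1 in a read-through gene and 1 on the strand opposite a ribosomal protein gene. The midpoints of the RPL22 and RPL26 peaks also lay in another, unnamed gene on the same strand, and the 5p list held 25 peaks in 16 genes without them.

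**Figure D5:**
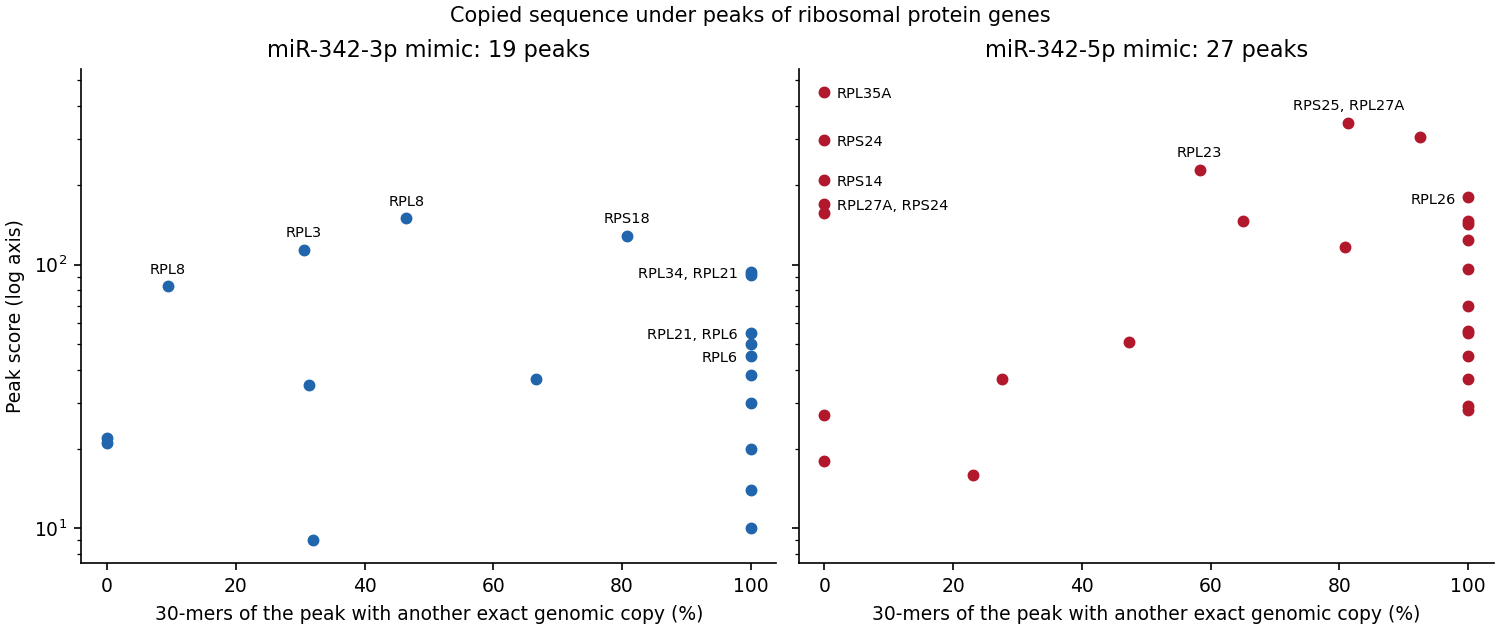
Score of each peak in a ribosomal protein gene (log axis) against the percent of its 30-mers with another exact copy in the genome, for 19 3p peaks (left) and 27 5p peaks (right), with the strongest peaks named (peaks under 30 nt were widened to 1 30-mer). High scores occur at both ends of the axis, with RPL35A (453) and RPS24 (298) at 0% and RPL26 (180) at 100%.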

How the data were processed

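The 9 libraries came from 231HM cells, 3 per mimic. The submitters' processing notes name cutadapt 1.13, TopHat2 2.0.13, UMI-tools and MACS2 2.1.1.20160309 on hg19. The authors deposited, per mimic, 1 merged peak list with position, strand, summit (a position) and a score, called over the negative control. Per the methods, the authors passed alignments through a Samtools quality filter whose limit is not given in the sources used here. How libraries were scaled is not given in the sources used here. The lowest score was 5 in both lists.

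Peaks were placed by midpoint and strand on basic transcripts of GENCODE release 44 for GRCh37, with 3′UTRs before coding exons. Sites were searched within 50 nt of the summit. Location and site shares were compared by two-sided Fisher's exact tests, adjusted by Benjamini-Hochberg over 6 tests, and strands by an exact McNemar test. Python 3.11.15, scipy 1.17.1, statsmodels 0.14.6, pysam 0.24.0, numpy 2.4.6 and matplotlib 3.10.9 were used, and the functions were tested on simulated data. Alternatives were score limits, placement, windows, site types and 1 peak per gene.

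Named genes are the 10 with the highest score per list, those with 3 or more peaks, those with an 8mer near a summit, and those with a 3′UTR peak and a site. Other genes are named to account for the rest, except a few genes that are not reported here. Members and gene lists were chosen with earlier results of these data known.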

Additional observations from a re-analysis of the deposited data

How the results depend on the processing

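The settings in this part were planned, except the one limited to coding exons. Of 133 values under other settings, 108 kept their direction and side of the threshold or stayed close. No paired analysis was possible because each list merges its replicates. The same holds for leaving out a replicate.

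Score limits moved the 3p results most. Above 50, the 3p list kept 5 genes and 7 peaks (median score 94), with 100% in coding exons and 0% in 3′UTRs. Above 100 it kept 3 genes and 3 peaks (median 129), at 100%, 0% and 0% with a site, and the differences of 47.4 points in coding exons (exact p = 0.251) and -41.8 points in 3′UTRs (exact p = 0.27) no longer passed. The 5p list kept 14 peaks above 100, where its coding-exon difference of 23.1 points did not pass (exact p = 0.0745). With the highest peak of each gene, the 3p differences of 28.3 points in coding exons and -21 points in 3′UTRs did not pass (exact p = 0.0771 and 0.23).

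The 3′UTR difference of the 5p list passed with coding exons placed first (-15.4 points, 0% of peaks, exact p = 0.0267) and against peaks in protein-coding genes (-15 points, exact p = 0.046). With 8mers only, 0% of peaks in either list had a site, and the 5p difference of -9.07 points did not pass (exact p = 0.167). The only 3p 8mer of these mRNAs, in RPL37, was not under a peak. With 6mers added, the 5p windows with a site numbered 3, and 4 on the reverse complement (-3.7 points, exact McNemar p = 1), a reversal. Fewer peaks or sites enter the score, 8mer and highest-peak settings; the cause of the other changes was not tested.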
